A study of Homo sapiens with 6 samples.

Results

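Cholesterol and fatty acid synthesis was examined as a set of 32 genes in H358, an epithelial line from a human lung cancer. The set held 18 enzymes of sterol synthesis, 7 enzymes of fatty acid synthesis and 7 regulators and carriers of both branches. Members were picked by name as known parts of these pathways, with earlier results of these data known. They were found by gene symbol among the 54607 rows of the deposited table. SC4MOL was found there as MSMO1, its current name, and SC5DL is called by its current name SC5D. All 32 were present once, and all passed a filter that asked for an average of 1 FPKM or more across the 6 libraries.

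Cells of the knockdown group expressed short hairpin RNAs, delivered by lentivirus, that target both ESRP1 and ESRP2, and cells of the control group a control knockdown. Each group had 3 libraries, described as biological triplicates. ESRP1 and ESRP2 are splicing regulators of epithelial cells. Neither the time of harvest nor the control hairpin is given in the sources used here, and what the constructs do by themselves and what follows from less ESRP cannot be told apart. The study asked how RNA differs between the 2 groups. Every value is in FPKM, a fragment count divided by transcript length and library size, so genes can be compared per length, but read totals are lost. Relative depth, read from the steps among low values, ran from 0.992 to 1.66 times that of control replicate 1, and total depth is unknown. ESRP1 averaged 11.9 ± 0.30 FPKM in knockdown libraries, against 72.9 ± 0.56 FPKM in control libraries (SD, n = 3 each, as in every mean ± SD below), and ESRP2 averaged 8.40 ± 0.32 FPKM in knockdown libraries, against 15.5 ± 0.36 FPKM in control libraries. The epithelial marker EPCAM stood between 388 and 412 FPKM in the 6 libraries. CDH1, KRT7, KRT8, KRT18 and KRT19, the other 5 of 6 epithelial markers examined, were at or above 98.5 FPKM in each library and fell in the knockdown, and their part in the results below was not tested. Of 10 markers of leukocytes, endothelium and fibroblasts found in the table, 9 stayed below 1 FPKM in every library, and COL1A1 stood between 8.33 and 10.8 FPKM in knockdown libraries, against 8.10 to 10.0 FPKM in control libraries.

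Cells build cholesterol from acetyl-CoA through mevalonate, squalene and lanosterol, and build fatty acids from the same acetyl-CoA through malonyl-CoA. Most enzymes of both branches are controlled by the membrane-bound transcription factors SREBP1 and SREBP2, encoded by SREBF1 and SREBF2. When sterols are low, the escort protein SCAP carries these factors from the endoplasmic reticulum to the Golgi, where proteases release them. INSIG1 and INSIG2 hold SCAP back when sterols are plentiful, and INSIG1 is itself a target of SREBP.

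Of the 32 genes, 16 fell in the knockdown and 2 rose, by limma on log2(FPKM + 1) with Benjamini-Hochberg adjustment over all 13611 rows tested and a threshold of 0.05. Of all tested rows, 16.7% were called, 10.2% lower and 6.54% higher. Because the 32 were chosen with earlier results known, their shares and medians are a description and not a test. The differences were small. The genes that fell stood at 61.9% to 91.5% of their control level, and SCD alone among the 32 changed at least 1.5-fold. The median log2 fold change over the 32 was -0.15, against -0.0021 over all tested rows. For 22 genes every knockdown library lay below every control library and for 3 every knockdown library lay above, where 38.1% of all tested rows did not overlap. Rows with the knockdown below the control made up 20.9% of all tested rows. Without control replicate 3 the 16 that fell became 9, while calls over all tested rows went from 2278 to 1187. Of the 16, 8 were called lower whichever 1 of the 6 libraries was left out. In bulk RNA, fewer cells that express a gene and less RNA per cell cannot be told apart.

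**Figure D1:**
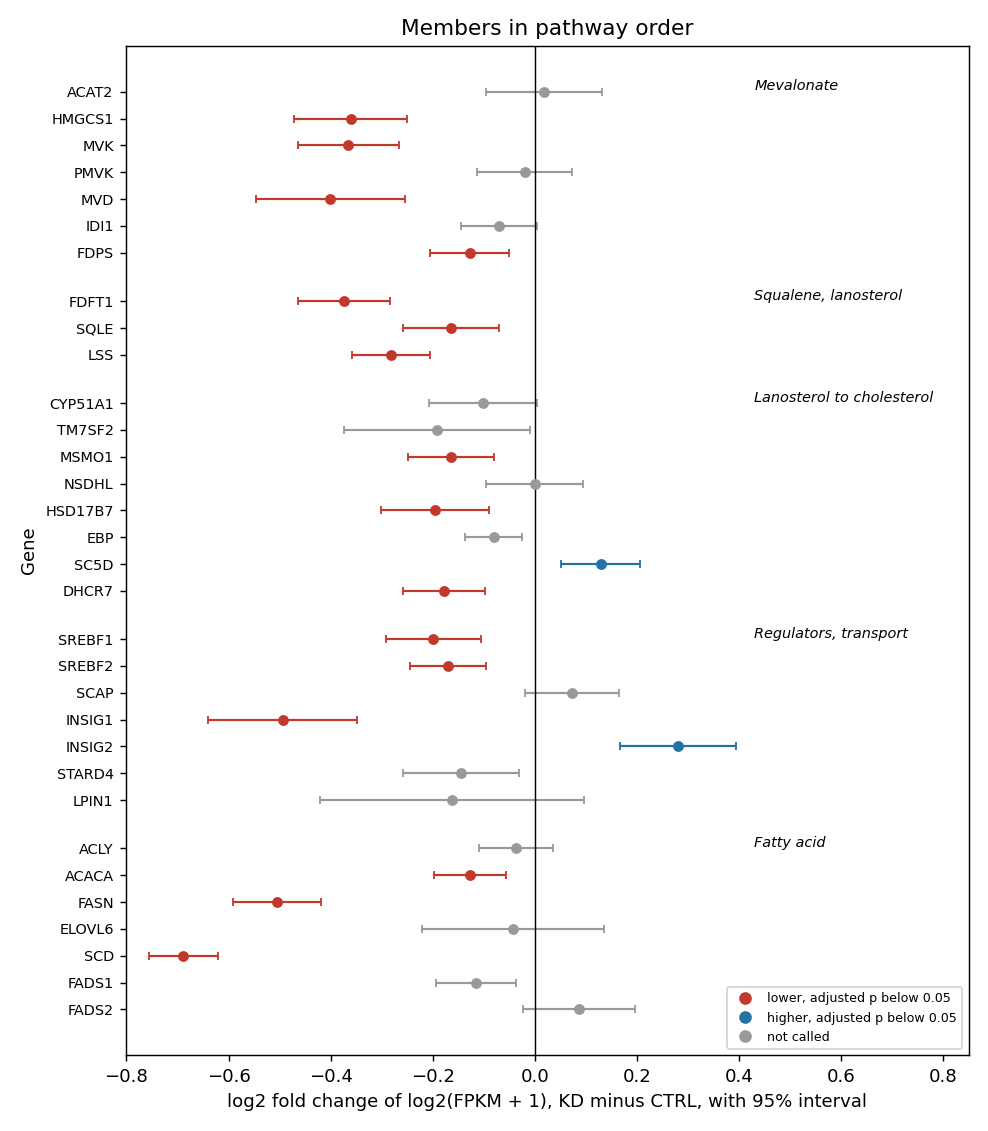
The log2 fold change of log2(FPKM + 1), knockdown minus control, of the 32 genes in pathway order, with 95% intervals from limma (n = 3 libraries each). Red marks the 16 genes called lower, blue the 2 called higher (SC5D and INSIG2) and grey the 14 not called. SCD and FASN lie furthest to the left.

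Promoter windows from RefSeq (build GRCh38.p14, 250 bases before to 50 bases after a gene start) were found for 28 of the 32 genes, 40 windows in all. They are shown for 5 genes that fell and for both that rose, INSIG2 and SC5D, since SREBP is known to act on its targets together with NF-Y, which binds the sequence CCAAT. The 5 shown that fell all hold CCAAT, and SREBF1, which fell without it, is not shown. Capitals mark CCAAT on either strand, read as ATTGG on the other one, and the sterol regulatory element TCACNCCAC. INSIG2, like SC5D, has 2 windows that overlap, and the first is shown.
SREBF2 (chr22:41832855-41833154, plus strand): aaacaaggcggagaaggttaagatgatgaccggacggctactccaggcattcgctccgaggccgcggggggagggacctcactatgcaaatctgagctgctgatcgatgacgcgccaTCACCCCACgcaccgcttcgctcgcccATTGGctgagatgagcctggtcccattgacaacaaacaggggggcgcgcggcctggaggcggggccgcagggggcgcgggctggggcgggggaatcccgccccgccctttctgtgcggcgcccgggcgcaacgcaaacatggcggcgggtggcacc
SCD (chr10:100346983-100347282, plus strand): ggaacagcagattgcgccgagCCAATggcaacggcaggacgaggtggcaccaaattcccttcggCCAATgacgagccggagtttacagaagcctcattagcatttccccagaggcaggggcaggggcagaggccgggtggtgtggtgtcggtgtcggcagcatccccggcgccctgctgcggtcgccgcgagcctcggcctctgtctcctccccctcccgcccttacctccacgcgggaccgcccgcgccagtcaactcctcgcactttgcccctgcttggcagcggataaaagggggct
MVK (chr12:109573544-109573843, plus strand): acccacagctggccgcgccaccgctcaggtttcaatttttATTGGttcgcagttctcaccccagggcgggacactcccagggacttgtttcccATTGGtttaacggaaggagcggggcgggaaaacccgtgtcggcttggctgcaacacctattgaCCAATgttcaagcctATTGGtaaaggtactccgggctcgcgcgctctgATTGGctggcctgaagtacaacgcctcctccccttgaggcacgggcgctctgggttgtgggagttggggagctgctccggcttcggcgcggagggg
MVD (chr16:88663042-88663341, minus strand): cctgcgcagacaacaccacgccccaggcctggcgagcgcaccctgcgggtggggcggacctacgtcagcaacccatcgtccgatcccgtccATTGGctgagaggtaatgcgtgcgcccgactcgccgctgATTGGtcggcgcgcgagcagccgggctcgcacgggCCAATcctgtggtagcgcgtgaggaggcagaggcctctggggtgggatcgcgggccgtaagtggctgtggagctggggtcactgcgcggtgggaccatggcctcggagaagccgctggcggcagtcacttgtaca
INSIG1 (chr7:155297628-155297927, plus strand): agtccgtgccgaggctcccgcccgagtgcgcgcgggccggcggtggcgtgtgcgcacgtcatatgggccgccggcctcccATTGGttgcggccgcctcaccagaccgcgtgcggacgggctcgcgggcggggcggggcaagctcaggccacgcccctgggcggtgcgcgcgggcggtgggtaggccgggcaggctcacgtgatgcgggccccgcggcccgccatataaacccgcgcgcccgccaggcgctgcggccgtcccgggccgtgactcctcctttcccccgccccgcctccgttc
INSIG2 (chr2:118088221-118088520, plus strand): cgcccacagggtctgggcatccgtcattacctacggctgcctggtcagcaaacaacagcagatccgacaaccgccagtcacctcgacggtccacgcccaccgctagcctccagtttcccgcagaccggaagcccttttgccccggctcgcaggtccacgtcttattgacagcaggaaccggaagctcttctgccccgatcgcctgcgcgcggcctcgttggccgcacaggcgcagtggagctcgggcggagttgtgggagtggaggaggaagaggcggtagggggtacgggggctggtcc
SC5D (chr11:121292521-121292820, plus strand, the first of 2 windows that overlap): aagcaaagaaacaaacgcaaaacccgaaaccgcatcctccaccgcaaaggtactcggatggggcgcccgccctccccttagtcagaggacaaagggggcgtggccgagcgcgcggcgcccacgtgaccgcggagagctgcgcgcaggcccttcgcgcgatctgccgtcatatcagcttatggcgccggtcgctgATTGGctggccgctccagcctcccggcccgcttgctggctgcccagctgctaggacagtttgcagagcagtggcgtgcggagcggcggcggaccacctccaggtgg
The CCAAT letters occurred in 60.0% of the members' windows, against 34.6% of all 35116 windows and 34.8% of the windows of genes that were tested. FASN, FDFT1 and SQLE, which fell, had no window and are not counted. By gene, 12 of 13 genes that fell and had a window held it in some window, all but SREBF1. So did 1 of the 2 that rose (SC5D) and 7 of 13 that were not called, against 43.8% of tested genes. SREBF2 held the only match to TCACNCCAC, starting 133 bases before the gene start, and 1.13% of all windows held one. The letters GGGCGG, bound by Sp1, were in 87.5% of the members' windows, against 45.0% of all windows and 65.7% of the windows of tested genes. A match describes these letters only, and the windows shown carry no measurement of binding.

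Among the regulators, both SREBP genes and INSIG1 fell and INSIG2 rose. INSIG1, the sterol-responsive anchor of SCAP (hg19 chromosome 7, 155089486 to 155101945), had 17.0, 14.2 and 15.0 FPKM in knockdown replicates 1, 2 and 3, against 22.6, 21.7 and 21.8 FPKM in the control replicates. The groups were well apart (log2 fold change -0.49, SE 0.06, limma adjusted p = 0.0029). INSIG2, the related anchor that is not a target of SREBP (chromosome 2, 118846028 to 118868573), had 17.9, 18.1 and 16.7 FPKM in the knockdown, against 15.0, 14.2 and 13.6 FPKM in the control. Here every knockdown library was above every control library (log2 fold change 0.28, SE 0.05, limma adjusted p = 0.0090). The ratio of INSIG2 to INSIG1 was 1.05, 1.28 and 1.11 in the knockdown libraries and 0.664, 0.655 and 0.624 in the control libraries. By FPKM the order of the pair was thus inverted, though in knockdown replicate 1 the genes were nearly equal. Both calls held when any 1 library was left out.

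SREBF1, whose products drive fatty acid and sterol genes, had 162, 169 and 178 FPKM in the knockdown, against 188, 200.0 and 197 FPKM in the control. The log2 fold change was -0.20 (SE 0.04, limma adjusted p = 0.016). The call was lost when control replicate 2, control replicate 3 or knockdown replicate 2 was left out, with no filter on low values, and once trends of the libraries on transcript GC content and length were removed (adjusted p 0.012 to 0.065 over the fits without a library). SREBF2, whose product acts mainly on sterol genes and whose promoter is shown above, had 48.3, 49.4 and 51.6 FPKM in the knockdown, against 55.8, 57.0 and 55.7 FPKM in the control (log2 fold change -0.17, SE 0.03, limma adjusted p = 0.012). Leaving out control replicate 2 ended this call (adjusted p 0.010 to 0.053 over the fits without a library). SCAP averaged 18.9 ± 0.64 FPKM in knockdown libraries, against 17.9 ± 0.56 FPKM in control libraries and was not called, with a 95% interval of the log2 difference from -0.02 to 0.17. With the GC and length trend removed it was called higher. STARD4, a carrier of cholesterol between membranes, averaged 16.7 ± 1.0 FPKM in knockdown libraries, against 18.5 ± 0.56 FPKM in control libraries (limma adjusted p = 0.082). It was called lower without knockdown replicate 3 (adjusted p 0.029 to 0.20 over the fits without a library) and with the GC and length trend removed. LPIN1, a phosphatidate phosphatase and SREBP target, had the largest standard error of the 32, with 14.9, 11.9 and 11.4 FPKM in the knockdown, against 13.7, 16.4 and 13.0 FPKM in the control, and the groups overlapped (adjusted p = 0.36).

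**Figure D2:**
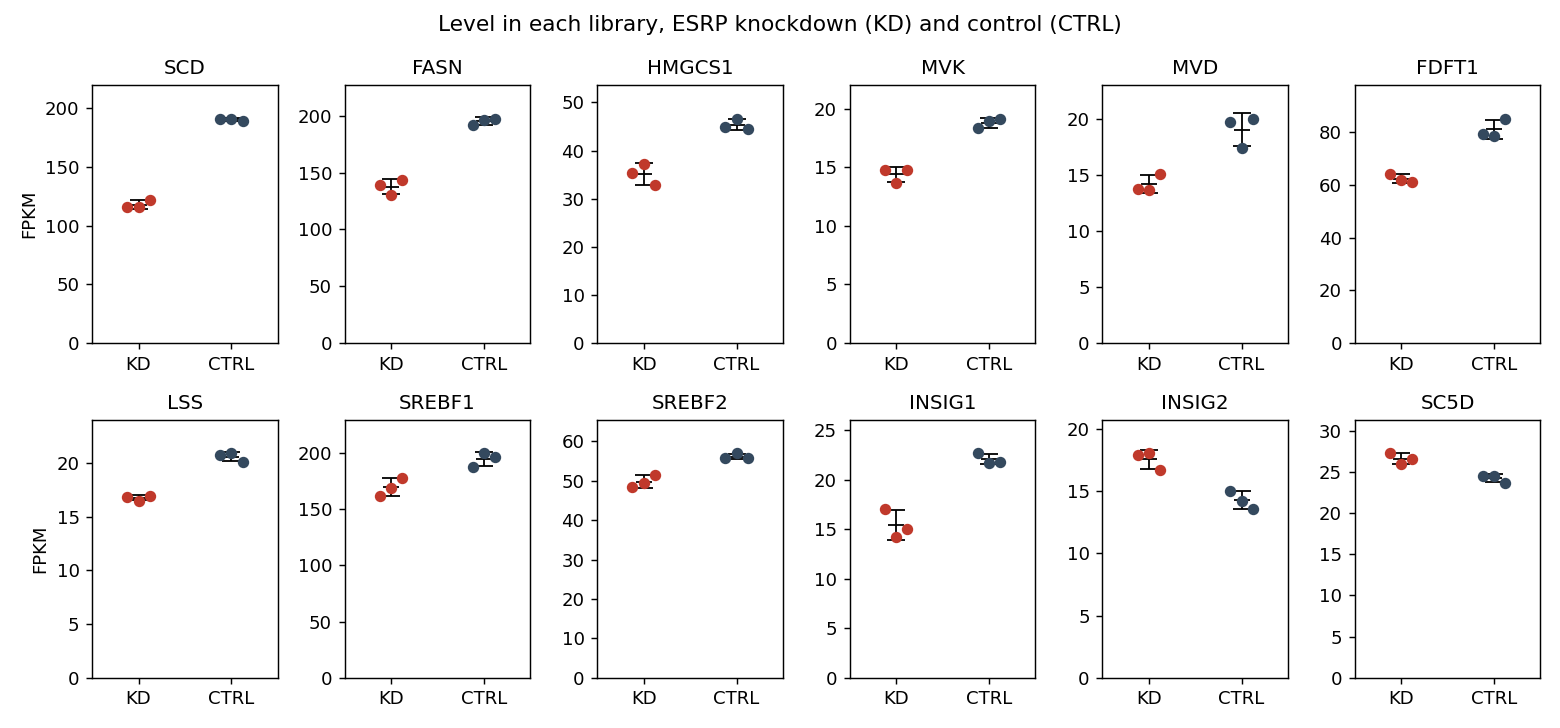
FPKM of 12 genes in each library, with ESRP knockdown (KD) left of control (CTRL) in each panel; points are libraries, and bars give the mean and SD (n = 3). INSIG2 and SC5D are higher in the knockdown, and the other 10 genes are lower, with SCD at 116 to 122 FPKM in the knockdown against 189 to 191 FPKM in the control.

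In the mevalonate part of the sterol branch 4 of 7 genes fell and 3 were not called. HMGCS1, which condenses acetoacetyl-CoA and acetyl-CoA (chromosome 5, 43289497 to 43313614), had 35.4, 37.2 and 32.8 FPKM in the knockdown, against 45.0, 46.6 and 44.5 FPKM in the control. The log2 fold change was -0.36 (SE 0.05, limma adjusted p = 0.0033). MVK, mevalonate kinase, had 14.8, 13.6 and 14.8 FPKM in the knockdown, against 18.4, 18.9 and 19.2 FPKM in the control (log2 fold change -0.37, SE 0.04, limma adjusted p = 0.0020). MVD, which decarboxylates diphosphomevalonate, had 13.8, 13.7 and 15.1 FPKM in the knockdown, against 19.7, 17.4 and 20.0 FPKM in the control (log2 fold change -0.40, SE 0.06, limma adjusted p = 0.0062). These 3 genes lay at 74.4% to 77.5% of their control level, with no overlap between groups, and kept their calls when any 1 library was left out.

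FDPS, farnesyl diphosphate synthase, was the most abundant sterol enzyme and fell less. It had 147, 149.9 and 157 FPKM in the knockdown, against 161, 165 and 169.5 FPKM in the control (log2 fold change -0.13, limma adjusted p = 0.038). That call was lost in each fit that left out a library except the one without knockdown replicate 3, with median-ratio scaling, with no filter, with no intensity trend and with the GC and length trend removed. The remaining 3 genes of this part were not called. ACAT2, the thiolase that supplies acetoacetyl-CoA, averaged 13.4 ± 0.65 FPKM in knockdown libraries, against 13.2 ± 0.59 FPKM in control libraries, with an interval of the log2 difference from -0.10 to 0.13. PMVK, phosphomevalonate kinase, which acts between MVK and MVD, averaged 27.3 ± 1.1 FPKM in knockdown libraries, against 27.7 ± 0.83 FPKM in control libraries, with an interval from -0.11 to 0.07. IDI1, isopentenyl diphosphate isomerase, averaged 22.5 ± 0.53 FPKM in knockdown libraries, against 23.7 ± 0.22 FPKM in control libraries without overlap, but did not pass (adjusted p = 0.17). ACAT2 shares its locus with TCP1 (105 FPKM) and SOD2 (16.0 FPKM) on the opposite strand, and MVK overlaps MMAB (21.4 FPKM) there. Whether the counting used strand is not given in the sources used here, so these values are uncertain to that extent.

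The squalene and lanosterol enzymes fell in 3 of 3. FDFT1, squalene synthase and the first enzyme committed to sterols, had 64.2, 61.8 and 61.0 FPKM in the knockdown, against 79.4, 78.7 and 85.2 FPKM in the control. LSS, which cyclises oxidosqualene to lanosterol (chromosome 21, 47608360 to 47648738), had 16.9, 16.5 and 16.9 FPKM in the knockdown, against 20.7, 20.9 and 20.1 FPKM in the control. Their log2 fold changes were -0.37 (SE 0.04, limma adjusted p = 0.0012) for FDFT1 and -0.28 (SE 0.03, limma adjusted p = 0.0020) for LSS, and both calls held without any 1 library. SQLE, squalene epoxidase and a rate-limiting step, stood between them in the pathway and fell less, with 29.1, 31.6 and 30.7 FPKM in the knockdown, against 35.4, 33.4 and 33.9 FPKM in the control (log2 fold change -0.16, limma adjusted p = 0.032). The SQLE call was lost in each fit that left out a library except the one without knockdown replicate 2, with no filter and with no intensity trend (adjusted p up to 0.096 over the fits without a library).

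From lanosterol to cholesterol 3 of 8 genes fell and 1 rose, each by at most 0.20 on the log2 scale. DHCR7, which catalyses a last reduction to cholesterol, had 35.3, 33.7 and 36.4 FPKM in the knockdown, against 40.2, 39.7 and 39.8 FPKM in the control (log2 fold change -0.18, limma adjusted p = 0.014). Leaving out control replicate 3 ended the call (adjusted p 0.013 to 0.052 over the fits without a library). MSMO1, a sterol methyl oxidase, had 47.1, 47.0 and 45.8 FPKM in the knockdown, against 51.2, 51.0 and 55.0 FPKM in the control (log2 fold change -0.16, limma adjusted p = 0.022). HSD17B7, a ketosteroid reductase of the same demethylation, had 10.8, 10.9 and 10.3 FPKM in the knockdown, against 13.0, 11.9 and 12.2 FPKM in the control (log2 fold change -0.20, limma adjusted p = 0.026). The groups did not overlap for any of these 3 genes. The MSMO1 call was lost without any of the knockdown replicates or control replicate 3, and the HSD17B7 call in each such fit except the one without control replicate 2, and both with no filter. HSD17B7 has a near-identical pseudogene, HSD17B7P2, listed at 1.69 FPKM on average, with which it can share reads.

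SC5D, a sterol desaturase, went the other way. It had 27.3, 26.0 and 26.7 FPKM in the knockdown, against 24.5, 24.6 and 23.7 FPKM in the control (log2 fold change 0.13, limma adjusted p = 0.037). The groups did not overlap, but the call was lost without any 1 of the 6 libraries (adjusted p up to 0.12), with no filter, TPM scaling, no intensity trend, or the GC and length trend removed. EBP, a sterol isomerase, averaged 74.5 ± 0.49 FPKM in knockdown libraries, against 78.9 ± 0.53 FPKM in control libraries, without overlap, and just missed the threshold (adjusted p = 0.056). It was called lower with TPM scaling and with no filter. CYP51A1, the lanosterol demethylase, and TM7SF2, a sterol reductase, had log2 fold changes of -0.10 and -0.19 and did not pass (adjusted p = 0.16 and 0.14). NSDHL, a sterol dehydrogenase, averaged 14.1 ± 0.57 FPKM in knockdown libraries, against 14.1 ± 0.29 FPKM in control libraries, with an interval of the log2 difference from -0.10 to 0.09. DHCR7 overlaps an antisense gene, RP11-660L16.2, at 28.1 FPKM on average, so its value is also uncertain without strand.

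SCD had the largest fall among the 32 genes, and FASN and INSIG1 came next with close values, FASN ahead on log2(FPKM + 1) and INSIG1 ahead in FPKM, at 69.9% of its control level. SCD, the desaturase that makes oleate from stearate (chromosome 10, 102106877 to 102124591), had 116, 116 and 122 FPKM in the knockdown, against 191, 191 and 189 FPKM in the control. Its mean was 61.9% of that in control (log2 fold change -0.69, SE 0.03, limma adjusted p = 5.7e-05). FASN, the synthase that makes palmitate (chromosome 17, 80036215 to 80056106), had 139, 131 and 143 FPKM in the knockdown, against 192, 197 and 198 FPKM in the control. Its mean was 70.4% of that in control (log2 fold change -0.50, SE 0.04, limma adjusted p = 3.6e-04). Each knockdown library lay far below each control library for both genes, and both calls held without any 1 library. A row listed as AL139819.1 lies inside SCD on the same strand and can share its reads. It averaged 33.0 ± 2.8 FPKM in knockdown libraries, against 48.6 ± 4.2 FPKM in control libraries, so it fell with SCD (log2 fold change -0.55, limma adjusted p = 0.0044; this row was chosen after its values were seen).

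Of the enzymes before FASN, ACACA fell slightly and ACLY was not called. ELOVL6, which acts after FASN, was not called either. ACACA, acetyl-CoA carboxylase and the committed step, had 20.3, 20.4 and 19.8 FPKM in the knockdown, against 22.0, 22.2 and 22.2 FPKM in the control (log2 fold change -0.13, limma adjusted p = 0.028), and this call was lost without any 1 of the 6 libraries (adjusted p up to 0.092). ACLY, which makes acetyl-CoA from citrate for both branches, averaged 60.1 ± 1.9 FPKM in knockdown libraries, against 61.7 ± 0.91 FPKM in control libraries, with an interval of the log2 difference from -0.11 to 0.04. ELOVL6, which lengthens palmitate to stearate, averaged 22.1 ± 1.8 FPKM in knockdown libraries, against 22.8 ± 2.1 FPKM in control libraries, with an interval from -0.22 to 0.14.

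The desaturases of polyunsaturated fatty acids, FADS1 and FADS2, lie in opposite orientation on chromosome 11, and their deposited coordinates overlap by 51099 bases. FADS1 averaged 32.7 ± 0.76 FPKM in knockdown libraries, against 35.5 ± 0.99 FPKM in control libraries, and FADS2 averaged 13.8 ± 0.77 FPKM in knockdown libraries, against 12.9 ± 0.33 FPKM in control libraries. Their estimates had opposite signs, -0.12 and 0.09 on the log2 scale, and neither passed (adjusted p = 0.054 and 0.25). FADS1 was called lower with TPM scaling, with a stricter filter of 5 FPKM and with the GC and length trend removed. The overlap makes both values uncertain without strand.

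Set side by side, 10 of 18 sterol enzymes fell and 1 rose, and 3 of 7 fatty acid enzymes fell and 4 were not called. Without control replicate 3 the sterol count was 5, and without knockdown replicate 1 it was 6. Calls over all tested rows went from 2278 to 1187 and 1448 in those fits. The median log2 fold change was -0.16 for the sterol enzymes and -0.12 for the fatty acid enzymes. The spread differed more than the middle did. Sterol enzymes ran from -0.40 to 0.13, while fatty acid enzymes ran from -0.69 to 0.09, with SCD and FASN below every sterol enzyme and the other 5 between -0.13 and 0.09. In single libraries, the median sterol enzyme lay 0.168, 0.125 and 0.123 below the control mean in knockdown replicates 1, 2 and 3, and the median fatty acid enzyme 0.131, 0.0784 and 0.137 below it. The difference between the branches was not tested, because the genes were chosen by hand with results known.

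**Figure D3:**
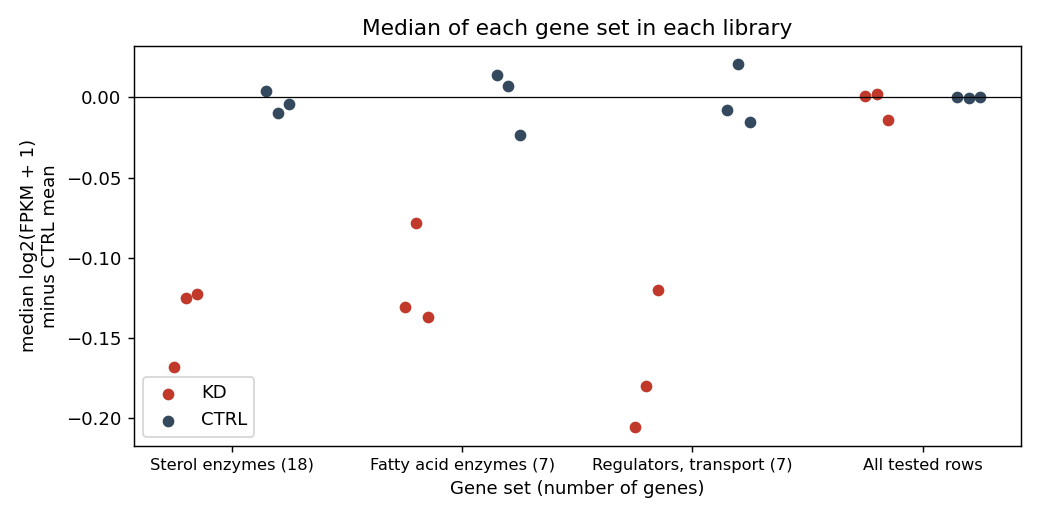
Median over the genes of a set of log2(FPKM + 1) minus the mean of the 3 control libraries, by library, for the sterol enzymes, the fatty acid enzymes, the regulators and carriers, and all 13611 tested rows, with knockdown left of control. The knockdown libraries lie at -0.168 to -0.0784 for the 2 enzyme sets and at -0.014 to 0.00203 for all rows.

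Across the 32 genes, those more abundant in the control had somewhat lower fold changes (Spearman rho -0.34 over genes, given as a description, since genes of 1 library share its depth and composition). The control level also enters the fold change, and the log2(FPKM + 1) scale understates changes of low genes. For level, no rho was taken over all tested rows. For transcript GC content rho was -0.21 over the 31 genes with a value, and it was -0.19 over all 13150 tested rows with one.

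Other genes of lipid metabolism were examined in 6 lists, read against the 16.7% of all tested rows that were called. These lists too were chosen with earlier results of these data known. Of 22 tested genes that process SREBP or are known SREBP targets, 7 fell and 2 rose, or 40.9%. ACSS2, which makes acetyl-CoA from acetate, averaged 7.50 ± 0.71 FPKM in knockdown libraries, against 12.9 ± 1.3 FPKM in control libraries (log2 fold change -0.71, SE 0.08, limma adjusted p = 0.0019). PCYT2, an enzyme of phosphatidylethanolamine synthesis, averaged 10.9 ± 0.30 FPKM in knockdown libraries, against 13.6 ± 0.35 FPKM in control libraries, and RDH11, a retinol dehydrogenase, averaged 48.3 ± 0.58 FPKM in knockdown libraries, against 57.2 ± 1.4 FPKM in control libraries. MBTPS1, the protease that makes the first cut in SREBP, rose, with 67.9 ± 0.87 FPKM in knockdown libraries, against 58.7 ± 0.29 FPKM in control libraries (log2 fold change 0.21, limma adjusted p = 0.0023). These 4 calls held without any 1 library. TMEM97, a sterol-responsive membrane protein, also rose (log2 fold change 0.16, limma adjusted p = 0.045), but its call was kept only without knockdown replicate 3 among those fits.

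Of 18 tested genes of sterol transport and of the oxysterol receptor LXR, 5 fell and 2 rose, or 38.9%. NPC1 and NPC2, which move cholesterol out of lysosomes, had log2 fold changes of -0.21 and -0.15, and the lipoprotein receptors LRP8 and VLDLR had -0.27 and 0.17. ABCA1, the cholesterol exporter, averaged 3.96 ± 0.18 FPKM in knockdown libraries, against 3.30 ± 0.13 FPKM in control libraries (log2 fold change 0.21, limma adjusted p = 0.049). Each of these 7 calls was lost without control replicate 2 and also without control replicate 3. Among 17 other genes of fatty acid synthesis and activation 4 fell and 1 rose, or 29.4%. ACSL1 and ACSL3, which activate long-chain fatty acids, fell with log2 fold changes of -0.24 and -0.27 and held without any 1 library. FADS3, at -0.30, overlaps FADS1 on the same strand and lost its call when replicate 1 or 2 of the knockdown, or replicate 1 or 3 of the control, was left out. PTPLA, an elongation dehydratase, rose by 0.13 on the log2 scale, a call lost without any 1 library.

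Of 12 tested genes of isoprenoid branches that leave the pathway at farnesyl diphosphate, 0 were called by limma. An unadjusted limma p below 0.05 was found for 4 of the 12, near the 32.9% of all tested rows that had one. Fatty acid oxidation fell in 2 of 21 tested genes and glycerolipid synthesis in 1 of 16, shares of calls below that of the whole table. An unadjusted limma p below 0.05 was found for 7 of the 21 and 7 of the 16, which is not below the 32.9% of all tested rows. CPT1A, which admits fatty acids to mitochondria, averaged 7.98 ± 0.47 FPKM in knockdown libraries, against 10.0 ± 0.013 FPKM in control libraries (log2 fold change -0.30, limma adjusted p = 0.0066). ACADVL, a dehydrogenase of long chains, had -0.13, lost without knockdown replicate 2 or any control replicate and with the GC and length trend removed. PLIN3, a coat protein of lipid droplets, had -0.24 (limma adjusted p = 0.0065).

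**Figure D4:**
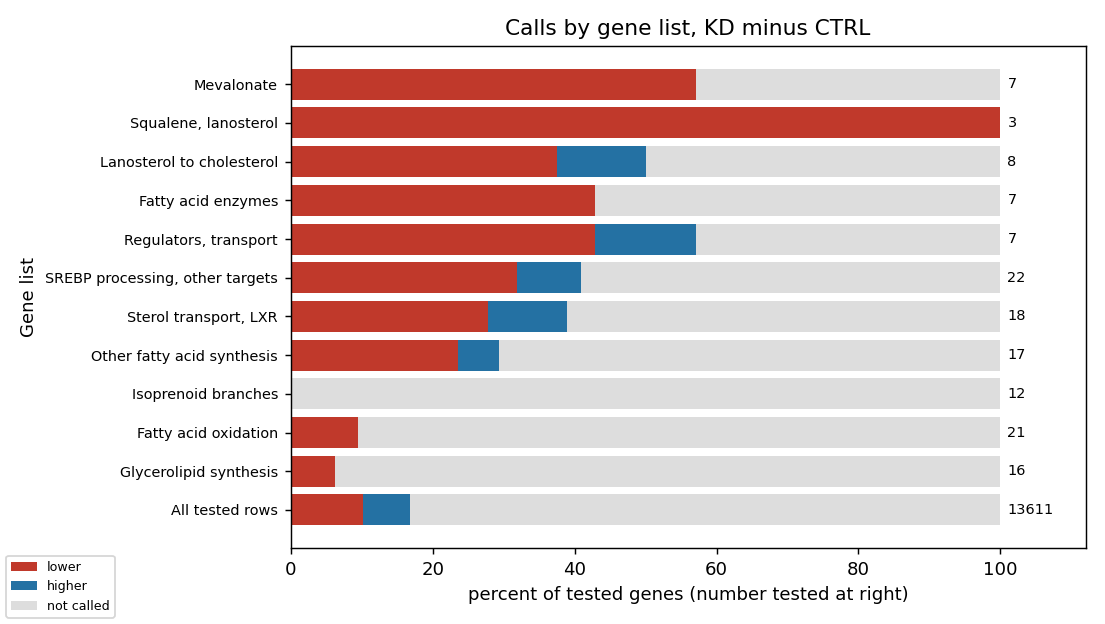
Percent of tested genes called lower (red), called higher (blue) or not called (grey) by limma, knockdown minus control, in each gene list, with the number tested at the right of each bar. The 3 squalene and lanosterol enzymes were all called lower, no gene of the isoprenoid branches was called, and 16.7% of all tested rows were.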

How the data were processed

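Libraries of H358 cells (3 ESRP knockdown, 3 control) were paired-end and made with a stranded kit, per the labels' protocols. The authors deposited FPKM per Ensembl gene, one column per library. TopHat 1.4.1, Cuffdiff 2.2.0 and hg19 are named in the submitters' processing notes. Annotation release and strand setting are not stated there. Deposited hg19 starts were raised by 1 to count from 1.

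The 13611 rows averaging at least 1 FPKM were fitted on log2(FPKM + 1) with limma 3.58.1 in R 4.3.3 (intensity trend, two-sided, knockdown minus control, no replicate block), with Benjamini-Hochberg adjustment over all of them. This scale understates changes of low genes. In simulated libraries of 13611 genes a small part was changed, fewer than were called here, with normal noise independent between genes. Of the changed genes, 70% at 1.25-fold and 98% at 1.5-fold were recovered, with 6.63% of calls false. These rates may differ in the data. Same-numbered libraries did not deviate together (r -0.0171 to 0.0701). Members and lists were chosen with earlier results of these data known. Named genes were ESRP1, ESRP2, all members and, of each further list, up to 4 called genes by smallest adjusted p plus called genes that went against their list. The fit was repeated with the replicate number as a block, with 0.1 as pseudocount, unfiltered, at 5 FPKM, with median-ratio or TPM scaling, without the trend and without each library. Chosen after seeing the data, a further fit removed lowess trends on transcript GC and length (GENCODE v29).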

Additional observations from a re-analysis of the deposited data

How the results depend on the processing

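Over all tested rows, 2278 were called, 1433 with the replicate block, 1413 with no filter, and 1187 to 1983 when 1 library was left out. Of the 32 genes, 16 were called lower, and 9 to 13 when 1 library was left out. The 2 called higher became 1 with the replicate block, with no filter, with TPM scaling, with no intensity trend and in each fit that left out a library (1 to 1). The 10 sterol enzymes called lower became 5 to 8 without 1 library, and their median log2 fold change ran from -0.182 to -0.12. The fatty acid count was 3, and 2 in each fit without 1 library. With the GC and length trend removed, the median of the sterol enzymes was -0.138, and the cause was not tested. ACACA has no GC value and was not in that fit. The median of the other 6 fatty acid enzymes was -0.082 there and -0.0787 before the trend was removed. In each of these fits 15 of the 31 genes with a value were called lower, but not the same 15. With the trend removed FDPS and SREBF1 lost the call, and STARD4 and FADS1 gained it.

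With the replicate block 12 of the 32 genes were called lower and 1 higher, and the calls of SQLE, MSMO1, HSD17B7, SC5D and ACACA were lost; the replicate numbers did not pair the libraries. No called gene changed direction under any alternative run. Some genes that were not called did, with log2 fold changes of 0.0182 for PMVK and 0.00851 for NSDHL with the GC and length trend removed, and 0.00438 for NSDHL with median-ratio scaling. When 1 library was left out, ACAT2 ran from -0.0172 to 0.0462, PMVK from -0.0427 to 0.011, NSDHL from -0.028 to 0.0268 and ELOVL6 from -0.0869 to 0.0292. Depth is unknown, so no interval for counting error could be given.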
